A study of Mus musculus with 110 samples.

Results

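Epididymal white adipose tissue (eWAT), the visceral fat pad attached to the male genital tract, was examined for its response to methionine restriction and cold exposure given together. The comparison held 14 of the 110 libraries of the series: the 7 eWAT libraries of MetR_CE and the 7 of Ctrl_RT, chosen by the tissue and group in their titles and by the library names of the count table. Each library came from a different male C57BL/6N wild-type (WT) mouse. The Ctrl_RT mice ate a control diet with 0.86% methionine, as the series' record gives it, for 7 days at 22 °C. The MetR_CE mice ate a diet with 0.12% methionine for 7 days at 22 °C and were then kept at 4 °C for 24 h. These 24 h made their protocol longer than that of the Ctrl_RT mice, and its length cannot be told apart from the cold. Both diets lacked cysteine, and all mice were adult and housed alone. The other eWAT groups, Ctrl_CE (cold alone, 7 mice) and MetR_RT (diet alone, 7 mice), entered the fit and are given where the pair of stimuli is set beside each one. PolyA-selected RNA was sequenced, and total counts of the 14 libraries ran from 24066773 to 33372110.

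Fat cells store triglyceride and release it by lipolysis, which noradrenaline drives in the cold through beta-adrenergic receptors. Brown adipocytes, and the beige adipocytes that appear in inguinal fat (iWAT), burn fatty acids for heat through the uncoupling protein Ucp1, whereas epididymal fat is known to form few such cells. Adipocytes also run a circadian clock, in which Arntl (BMAL1) with Clock or Npas2 drives genes with E-box elements, Per and Cry proteins repress that drive, and Nr1d1 and Nr1d2 repress Arntl in turn. Restriction of methionine, an essential sulfur amino acid, engages the integrated stress response, in which phosphorylated eIF2α favours the translation of Atf4.

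The tissue label was checked first, because Ctrl_RT replicates 2, 4 and 5 stood apart from the rest in markers of adipocytes and of the genital tract. The summed level of 12 adipocyte markers, in normalised counts scaled to library size (CPM), was 34838 to 44125 in MetR_CE. It was 33604 to 44511 in Ctrl_RT replicates 1, 3, 6 and 7, and 21517, 25104 and 20267 in replicates 2, 4 and 5. All 12 adipocyte markers were detected in both groups, and replicates 2, 4 and 5 lay below every other library of Ctrl_RT and MetR_CE.

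Replicates 4 and 5 held male germ cell transcripts, with 1809 and 3244 CPM summed over 12 markers, against 6.49 to 12.6 in MetR_CE and 6.39 to 34.6 in replicates 1, 3, 6 and 7. Replicate 2 held 14041 CPM of epididymis markers and 148 of germ cell markers. Replicate 5 also held 8120.5 CPM of vas deferens and seminal vesicle markers. Markers of that tract were not confined to those libraries: replicate 6 held 1060.5 CPM of seminal vesicle markers and 124 of epididymis markers, and MetR_CE replicate 1 held 48.02 and 149. In the diet-alone group, MetR_RT replicate 7 held 3101 CPM of germ cell markers with an adipocyte sum of 18785, and MetR_RT replicate 2 held 2283 CPM of epididymis markers. Ctrl_RT replicate 7 stood apart in skeletal muscle markers, at 437 CPM against 8.53 to 14.01 in MetR_CE. Counts and log2 fold changes are therefore given with all 7 Ctrl_RT libraries and with the 4 that remain without replicates 2, 4 and 5.

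**Figure D1:**
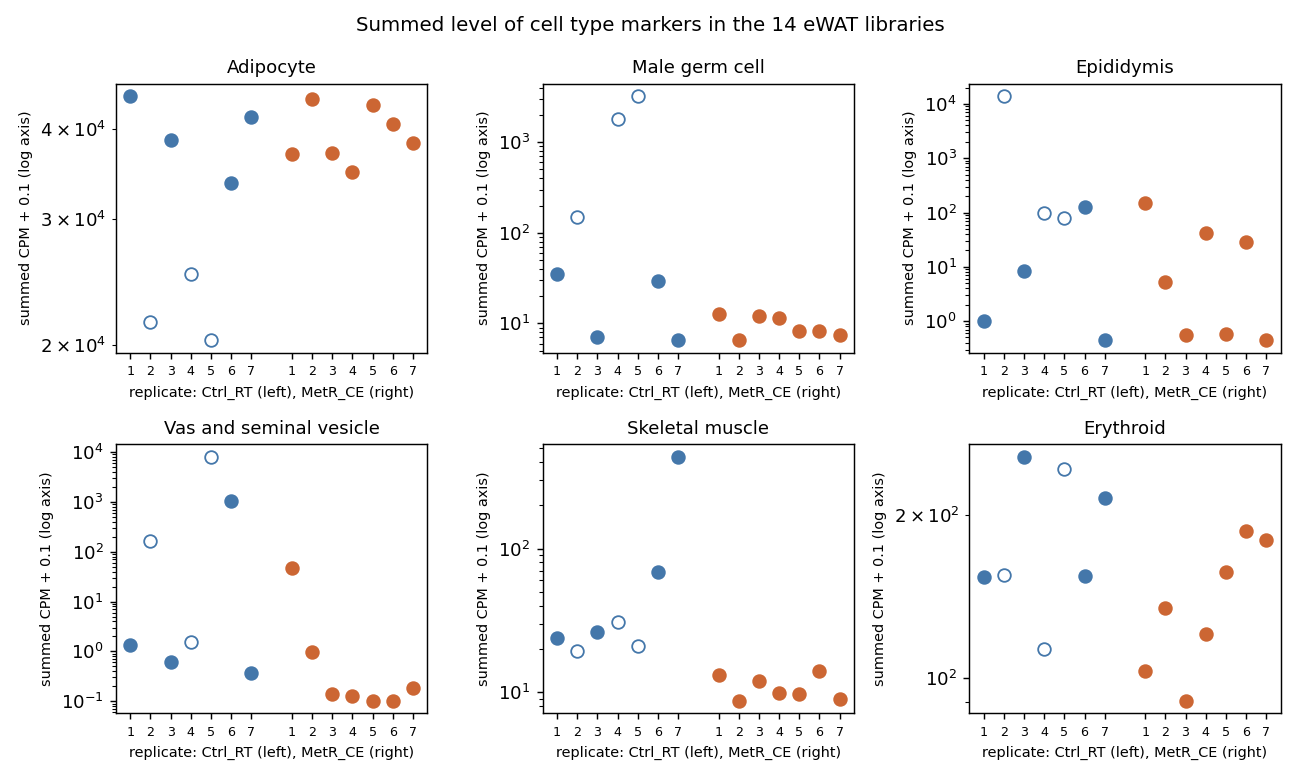
Summed CPM of the markers of 6 cell types (log axis, 0.1 added) in each of the 14 eWAT libraries, by replicate number, with Ctrl_RT in blue and MetR_CE in orange and with Ctrl_RT replicates 2, 4 and 5 as open symbols. The open symbols are lowest for adipocyte markers, replicates 4 and 5 are highest for germ cell markers and replicate 2 is highest for epididymis markers.

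With all 7 controls, 3268 of 31464 genes tested (10.4%) were differentially expressed genes (DEGs), by edgeR's quasi-likelihood test with Benjamini-Hochberg adjustment, at an adjusted p under 0.05 and a change of 1.5-fold or more in either direction. Of these, 616 were higher in MetR_CE (1.96%) and 2652 lower (8.43%). With 4 controls the count was 257 of 29657 (0.867%), 116 higher (0.391%) and 141 lower (0.475%). These shares of all genes tested are the background for the list counts below. From 7 to 4 controls most calls were lost in both directions. Of the 2652 lower genes 96 (3.62%) were called again, against 101 of the 616 higher genes (16.4%). Fewer control libraries also give the test less power, and the part of this in the loss was not tested. In 1817 of the 2652 (68.5%), Ctrl_RT replicates 4 and 5 were the 2 highest of the 14 libraries, and in 494 (18.6%) replicate 2 was the highest. Both shares were counted among genes called lower, a call that itself favours high values in Ctrl_RT. The same shares over all genes tested are not given here. No gene was called in opposite directions, and 45 lower and 15 higher genes tested with both sets were called with 4 controls alone. Over all genes tested, the log2 fold change had a median of -0.18 with 7 controls and -0.03 with 4. In whole tissue, fewer cells of a type and less RNA per cell cannot be told apart.

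Lists of the genital tract had no calls with 4 controls, beside 0.867% of all genes tested (10.4% with 7). The repeat leaves out the controls with the highest sums of these markers, so the loss of calls was favoured by that choice. Of 12 male germ cell genes, 11 were lower in MetR_CE with 7 controls and 0 with 4, and the same counts were 10 and 0 of 10 genes of vas and seminal vesicle and 11 of 23 and 0 of 22 epididymis genes. The median log2 fold change of vas and seminal vesicle genes was -7.48 with 7 controls and still -5.23 with 4, among which replicate 6 held such RNA, whereas the germ cell median went from -7.48 to -1.71 and the epididymis median from -6.24 to -0.76. The transition protein gene Tnp2, which packs sperm chromatin, had 384 and 444 CPM in Ctrl_RT replicates 4 and 5 and 0.121 to 1.78 in MetR_CE. Its log2 fold change was -7.91 ± 1.86 (SE) with 7 controls (adjusted p = 0.013) and -2.30 ± 1.44 with 4 (adjusted p = 0.611). Proliferation genes moved alike, with 16 of 25 lower with 7 controls and 0 with 4. The topoisomerase Top2a was at 23.9 and 49.98 CPM in replicates 4 and 5 and at 2.73 to 6.78 in the 4 remaining controls. Genes of sulfur amino acid metabolism included such cases too. Cth, which makes cysteine from cystathionine, had 75.1 CPM in replicate 2 and 6.74 to 12.6 in the 4 remaining controls, and its log2 fold change was -1.59 ± 0.44 (adjusted p = 0.023) with 7 controls and -0.60 ± 0.25 (adjusted p = 0.314) with 4.

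**Figure D2:**
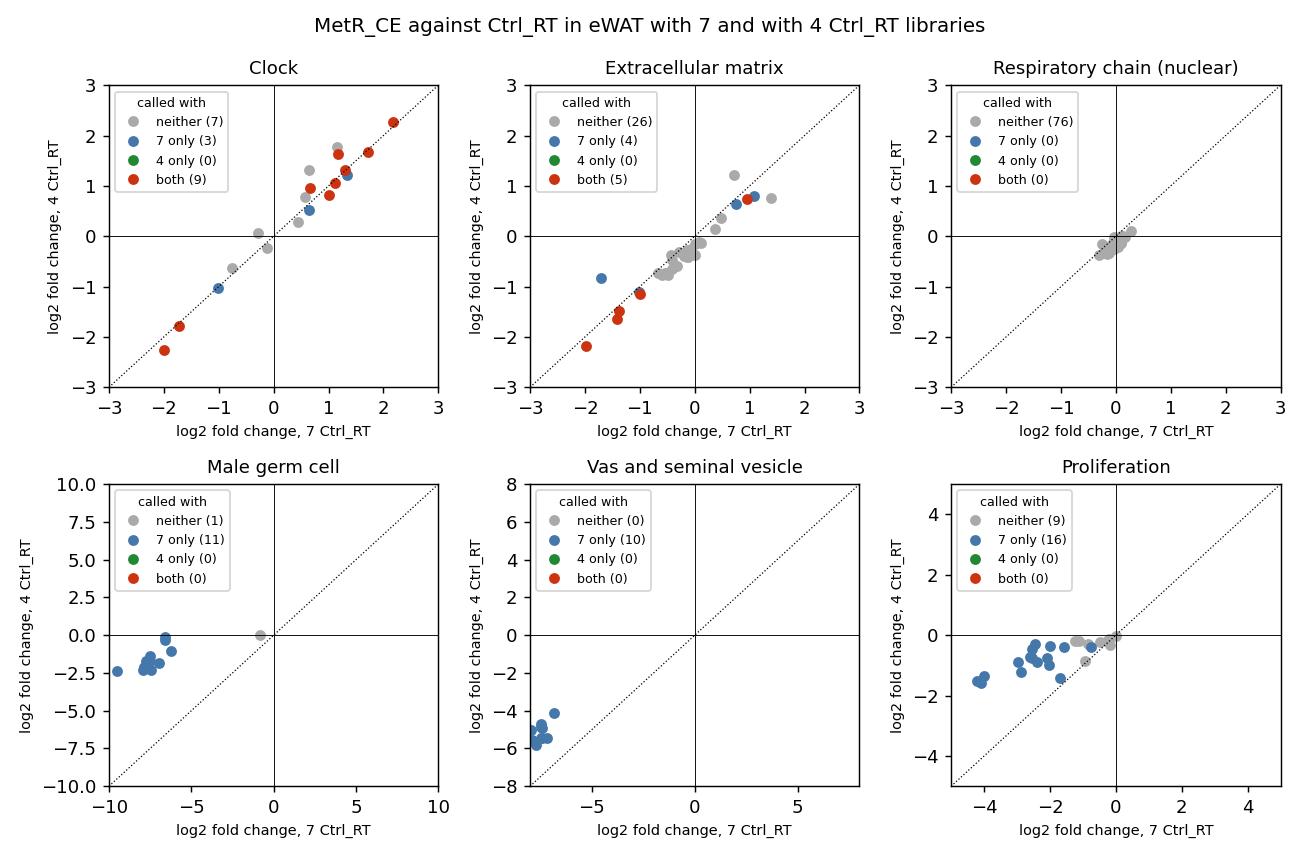
Log2 fold change of MetR_CE against Ctrl_RT in eWAT with 7 Ctrl_RT libraries (x axis) and with 4 (y axis) for the members of 6 gene lists, coloured by the set of controls with which each was called. Clock genes lie along the dotted line of equal values, all 76 respiratory chain genes lie near 0, and germ cell, seminal vesicle and proliferation genes lie far below 0 on the x axis and closer to it on the y axis.

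The circadian clock genes had the highest share of calls among the 23 pathway lists with 4 controls. Of 19 clock genes, 9 rose and 3 fell with 7 controls, and 7 rose and 2 fell with 4, beside 10.4% and 0.867% of all genes. All 9 genes called with both sets are named, a choice made after their values were seen. The median of the 19 log2 fold changes was 0.64 with 7 controls and 0.81 with 4. Of the activator arm, Arntl and Npas2 were lower, and Clock was not called with 4 controls. Arntl had 9.60, 20.6 and 29.3 CPM as the lowest, median and highest value in Ctrl_RT and 4.71, 5.59 and 7.99 in MetR_CE. The groups did not overlap, and the lowest controls were replicates 5 and 6. The log2 fold change of Arntl was -1.73 ± 0.28 (adjusted p = 0.000771) with 7 controls and -1.79 ± 0.30 (adjusted p = 0.00261) with 4. Npas2, a partner of Arntl, had 5.53, 7.57 and 12.9 CPM in Ctrl_RT and 0.766, 1.30 and 4.44 in MetR_CE, again without overlap. Its log2 fold change was -1.99 ± 0.40 (adjusted p = 0.00372) and -2.26 ± 0.45 (adjusted p = 0.0102).

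Some targets and repressors of that arm were higher. With 4 controls 10 of the 19 clock genes were not called, among them Per1, Per3, Cry1 and Cry2. Dbp, a PAR bZIP factor whose gene carries E-boxes, had 6.32, 21.1 and 56.8 CPM in Ctrl_RT and 86.0, 117 and 129.9 in MetR_CE. Its highest control, replicate 6, lay below the lowest MetR_CE library, and its log2 fold change was 2.18 ± 0.36 (adjusted p = 0.00077) with 7 controls and 2.27 ± 0.46 (adjusted p = 0.0121) with 4. Tef, of the same family, had 76.8, 114 and 161 CPM in Ctrl_RT and 233, 264 and 316 in MetR_CE, without overlap, and a log2 fold change of 1.30 ± 0.20 with 7 controls and 1.31 ± 0.25 with 4 (adjusted p = 0.000374 and 0.00786). The repressor Per2 had 9.98, 18.4 and 36.4 CPM in Ctrl_RT and 39.1, 53.4 and 102 in MetR_CE. Its groups were separate as well, replicate 6 was again the highest control, and its log2 fold change was 1.71 ± 0.29 with 7 controls and 1.68 ± 0.37 with 4 (adjusted p = 0.000851 and 0.0193). Among the nuclear receptors that repress Arntl, Nr1d2 had 34.2, 43.3 and 68.9 CPM in Ctrl_RT and 91.2, 99.5 and 115 in MetR_CE, with a log2 fold change of 1.11 ± 0.14 with 7 controls and 1.06 ± 0.18 with 4 (adjusted p = 9.41e-05 and 0.00262). For Nr1d1 the values were 103, 135 and 181 and 245, 276.5 and 303 CPM, and the log2 fold change 0.81 ± 0.21 with 4 controls (adjusted p = 0.0473; also called with 7, adjusted p = 0.00123). Neither receptor overlapped between the groups. The E-box repressors Ciart and Bhlhe41 had log2 fold changes of 0.95 ± 0.24 and 1.63 ± 0.35 with 4 controls (adjusted p = 0.0463 and 0.0176), but of 0.67 and 1.17 with 7, where their groups overlapped. Mice were killed within a morning window of the light phase, and the hour of each mouse is not given in the sources used here, so its part in the clock genes was not tested.

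E-boxes were looked for near the start sites, because the clock genes that changed together include known E-box targets. The windows ran from 250 bases before to 50 after the RefSeq start sites (GRCm38.p6), both strands were searched for CACGTG, and 8 of the 9 clock genes called with both sets of controls had a window in the table. These 9 genes were added to the search after their values were seen. The letters stood in 3 of the 8 genes (Ciart, Bhlhe41 and Tef), and 7.15% of 32817 windows of all genes held them. The 8 genes had 10 windows and a match in any of them counted, so a share of genes is not like a share of windows. Clock genes that were not called were not searched, so the count does not bear on the change in level. The E-box is its own reverse complement, and a match describes the letters only. Ciart is shown because it held 3 copies, and Bhlhe41 for its single one. Each line gives the 250 bases upstream of the start, 5′ to 3′ on the gene's strand, with the matched letters in capitals: Ciart at chr3:95882229-95882478 and Bhlhe41 at chr6:145865421-145865670, both on the minus strand.
Ciart: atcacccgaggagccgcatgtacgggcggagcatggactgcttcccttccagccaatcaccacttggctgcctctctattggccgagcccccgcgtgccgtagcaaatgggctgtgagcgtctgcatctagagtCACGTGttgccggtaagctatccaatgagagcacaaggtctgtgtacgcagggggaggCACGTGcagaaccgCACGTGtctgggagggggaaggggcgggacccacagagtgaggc
Bhlhe41: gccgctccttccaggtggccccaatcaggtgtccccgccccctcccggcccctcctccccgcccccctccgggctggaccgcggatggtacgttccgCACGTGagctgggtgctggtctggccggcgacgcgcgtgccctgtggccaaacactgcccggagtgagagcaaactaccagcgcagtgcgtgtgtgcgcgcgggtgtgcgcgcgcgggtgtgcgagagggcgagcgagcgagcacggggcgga
Of the 24 genes ranked first by their test (12 higher and 12 lower with both sets of controls), 19 had a window, with 26 windows in all. Only Maff and Slc16a1 held an E-box there, and of these Maff alone held the cAMP response element TGACGTCA, found in 1.79% of all windows. The AP-1 letters TGACTCA (5.2% of windows) and the D-box letters TTACGTAA (0.119%) were in none of the 19. Maff is shown for both of its elements, at chr15:79347270-79347519 on the plus strand, again with the matched letters in capitals.
Maff: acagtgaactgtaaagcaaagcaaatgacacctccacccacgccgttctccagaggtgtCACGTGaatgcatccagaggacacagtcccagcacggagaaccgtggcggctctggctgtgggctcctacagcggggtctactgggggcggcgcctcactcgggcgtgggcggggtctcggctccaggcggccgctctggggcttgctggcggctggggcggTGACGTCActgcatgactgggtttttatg

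Among the 12 leading higher genes were regulators of signalling and transcription. Spsb1, an adaptor of a ubiquitin ligase, had 24.1, 34.9 and 46.9 CPM in Ctrl_RT and 53.9, 82.5 and 106 in MetR_CE, and its log2 fold change was 1.19 ± 0.14 with 7 controls (adjusted p = 6.34e-05) and 1.33 ± 0.16 with 4 (adjusted p = 0.000102). Every MetR_CE library exceeded every control. Maff, a small Maf factor counted with the immediate early genes, had 4.17, 6.98 and 11.3 CPM in Ctrl_RT and 16.6, 21.7 and 27.1 in MetR_CE, without overlap, and a log2 fold change of 1.67 ± 0.20 with 7 controls and 1.89 ± 0.23 with 4 (adjusted p = 8.12e-05 and 0.000138). Hr, a transcriptional corepressor, had 36.7, 82.0 and 126 CPM in Ctrl_RT and 134, 332 and 371 in MetR_CE. The controls again lay below, with the narrowest gap between Ctrl_RT replicate 4 and MetR_CE replicate 1, and the log2 fold change was 1.95 ± 0.30 with 7 controls and 2.04 ± 0.34 with 4 (adjusted p = 0.000374 and 0.00259). Arhgef37 had 17.8, 27.8 and 65.4 CPM in Ctrl_RT and 74.7, 87.2 and 133 in MetR_CE, with replicate 2 as the highest control, and a log2 fold change of 1.46 ± 0.21 with 7 controls and 1.67 ± 0.22 with 4 (adjusted p = 0.000305 and 0.000234).

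Il2ra, the interleukin-2 receptor alpha chain, had 1.98, 3.42 and 3.91 CPM in Ctrl_RT and 5.91, 7.13 and 10.7 in MetR_CE. The groups did not overlap, and its log2 fold change was 1.33 ± 0.17 with 7 controls and 1.07 ± 0.18 with 4 (adjusted p = 0.00255). The summed level of 17 lymphocyte markers was 143 to 419 CPM in MetR_CE and 61.5 to 401 in the 4 controls, none of the 17 was called with 4 controls and 4 were higher with 7, and their part in the level of Il2ra was not tested. The other leading higher genes were Zfp385a, Pald1, Gse1, Spred2, Dock10, Timp3 and P4ha2, with log2 fold changes between 0.68 (P4ha2) and 0.98 (Dock10) with 4 controls. Spred2 is an inhibitor of Ras signalling, and P4ha2 a subunit of the collagen prolyl hydroxylase.

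Col1a1, Col1a2 and Col3a1, which encode fibrillar collagen chains, were lower. Of 35 extracellular matrix genes, 6 fell and 3 rose with 7 controls, and 4 fell and 1 rose with 4, and the median log2 fold change of the list was -0.15 and -0.38. Col1a1 had 409, 544 and 749 CPM in Ctrl_RT and 141, 210.0 and 306 in MetR_CE, and Col3a1 had 901, 1504 and 2442 and 403, 568 and 864. For both genes the highest MetR_CE library lay below the lowest control. Their log2 fold changes were -1.39 ± 0.19 and -1.41 ± 0.22 with 7 controls, and -1.48 ± 0.21 and -1.65 ± 0.23 with 4 (adjusted p = 0.000451 and 0.000476). Col1a2, which forms type I collagen with Col1a1, changed by -1.002 ± 0.18 with 7 controls and -1.14 ± 0.20 with 4 (adjusted p = 0.00165 and 0.00294). Srpx, a secreted sushi-domain protein, had 11.3, 20.9 and 34.3 CPM in Ctrl_RT and 3.44, 5.04 and 7.63 in MetR_CE, without overlap, and a log2 fold change of -1.97 ± 0.25 with 7 controls and -2.18 ± 0.24 with 4 (adjusted p = 9.41e-05 and 6.85e-05). The member that rose was Timp3, an inhibitor of matrix metalloproteinases, at 105, 181 and 193 CPM in Ctrl_RT and 270.1, 301 and 366 in MetR_CE, with a log2 fold change of 0.96 ± 0.12 with 7 controls and 0.74 ± 0.13 with 4 (adjusted p = 9.91e-05 and 0.00261). The adipose stroma markers, which include fibroblast genes, summed to 805 to 1439 CPM in MetR_CE and 1136 to 1631 in the 4 controls, with 1 of 12 called lower (Cd248, -0.90 ± 0.21, adjusted p = 0.0256). The part of fibroblast number in the collagen values was not tested.

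**Figure D3:**
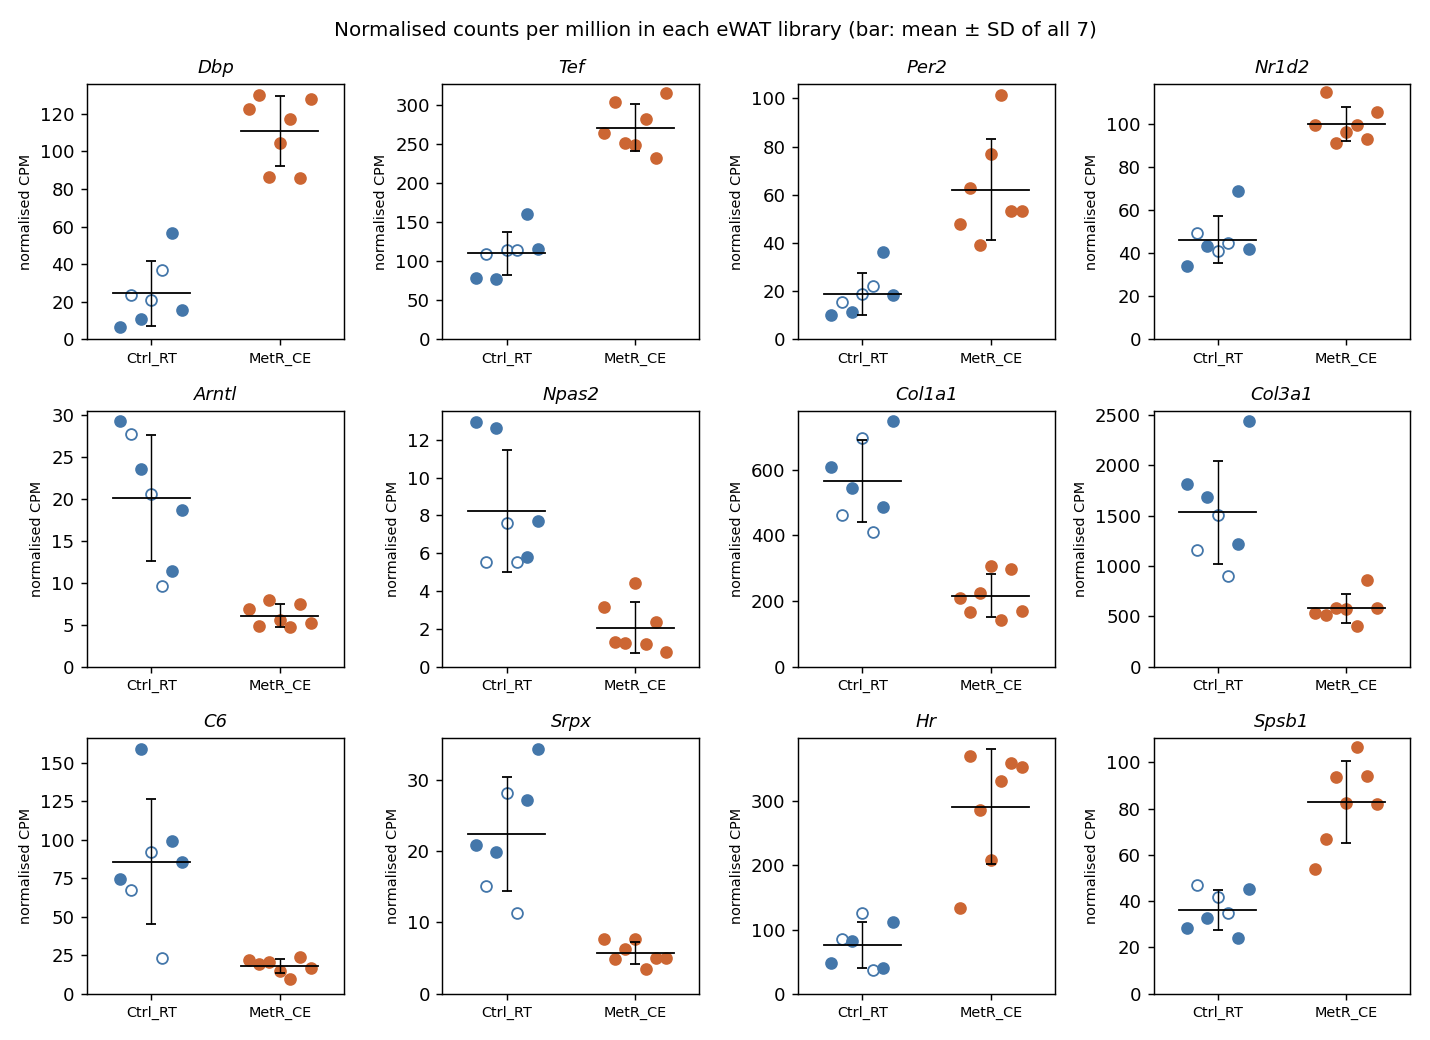
Normalised CPM of 12 genes in each eWAT library of Ctrl_RT (blue, with replicates 2, 4 and 5 as open symbols) and MetR_CE (orange), with the mean ± SD of all 7. The groups are separate in 11 of the 12 panels, and in C6 only the open symbol of replicate 5, at 22.9 CPM, reaches into the MetR_CE range. The genes were taken from those called in this contrast with both sets of controls, which favours separation. The share of all genes tested without overlap is not given here.

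Complement component C6, part of the membrane attack complex, had the lowest adjusted p of all genes tested with 4 controls. It had 22.9, 85.7 and 159 CPM in Ctrl_RT and 9.69, 19.02 and 23.7 in MetR_CE. Replicate 5, the lowest control, overlapped with MetR_CE, and the 4 remaining controls, at 74.4, 159, 99.0 and 85.7, did not. The log2 fold change was -2.25 ± 0.28 with 7 controls (adjusted p = 9.41e-05) and -2.55 ± 0.25 with 4 (adjusted p = 7.86e-06). C2, a protease of the classical pathway, changed by -0.91 ± 0.22 with 7 controls and -1.23 ± 0.19 with 4 (adjusted p = 0.0151 and 0.00147), whereas the central component C3 had -1.15 ± 0.33 with 7 controls (adjusted p = 0.0266) and -1.39 ± 0.38 with 4 (adjusted p = 0.0658). Of 24 complement genes, 3 fell with 7 controls and 2 with 4, and none rose.

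Cytochrome P450 genes gave 3 lower members with both sets of controls. Cyp2e1, which oxidizes ethanol and acetone, had 944, 3385 and 6786 CPM in Ctrl_RT and 474, 561 and 1219 in MetR_CE. Replicate 5 was the lowest control and the only one within the MetR_CE range, and the log2 fold change was -2.30 ± 0.50 (adjusted p = 0.00745) and -2.72 ± 0.52 (adjusted p = 0.00786). With 4 controls Cyp4f17 changed by -1.43 ± 0.20 (adjusted p = 0.000369; -1.06 with 7) and Cyp2b10, at 1.002 to 1.71 CPM in the 4 controls and at 0 to 0.425 in MetR_CE, by -3.18 ± 0.58 (adjusted p = 0.00472), beside -2.99 with 7. Of 19 P450 genes, 2 others rose with 7 controls (Cyp27a1 and the reductase Por) and none with 4.

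The other leading lower genes were of mixed function. Slc16a1, the lactate and ketone body transporter MCT1, had 64.6, 113 and 163 CPM in Ctrl_RT and 38.9, 51.2 and 57.2 in MetR_CE, without overlap, and a log2 fold change of -1.23 ± 0.18 with 7 controls and -1.43 ± 0.19 with 4 (adjusted p = 0.00034 and 0.000234). Nabp1, a single-stranded DNA binding protein, had 189, 276.9 and 353 CPM in Ctrl_RT and 41.9, 66.4 and 111 in MetR_CE and changed by -1.94 ± 0.26 with 7 controls and -2.07 ± 0.29 with 4 (adjusted p = 0.00019 and 0.000476). Its lowest control, replicate 2, exceeded every MetR_CE library. The metalloprotease gene Adam12 changed by -1.68 ± 0.27, Rasl11a by -1.40 ± 0.19 and the secreted growth factor gene Clec11a by -1.85 ± 0.26 with 4 controls. Slc4a1, the anion exchanger of red cells, had 0.505, 1.09 and 1.98 CPM in Ctrl_RT and 0.0386, 0.106 and 0.235 in MetR_CE and changed by -3.09 ± 0.48 with 7 controls and -3.16 ± 0.51 with 4 (adjusted p = 0.000509 and 0.00194). The summed erythroid markers moved with it in part, at 153 to 257 CPM in the 4 controls and 90.3 to 187 in MetR_CE, with Hbb-bt called lower (-1.03 ± 0.26, adjusted p = 0.0482) as the 1 of 5 markers, and their part in its change was not tested. Skeletal actin Acta1 was lower too (-3.72 ± 0.72 with 7 controls and -4.42 ± 0.64 with 4, adjusted p = 0.00296 and 0.000527), with 19.3, 18.1, 63.4 and 432 CPM in the 4 controls and 4.21 to 9.86 in MetR_CE. Replicate 7, which held muscle markers, was the highest, and the other 3 also exceeded every MetR_CE library.

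Thermogenic genes did not pass with 4 controls. Of 23, 1 rose and 1 fell with 7 controls, and 0 were called with 4, beside 10.4% and 0.867% of all genes tested. With so low a share of all genes, 0 calls in a list of this size does not set it apart. Ucp1 had 0, 0.140 and 0.312 CPM in Ctrl_RT and 0, 1.14 and 5.79 in MetR_CE. MetR_CE replicates 1 and 3 were high, replicate 7 was at 0 and the groups overlapped. The log2 fold change of Ucp1 was 3.75 ± 1.01 with 7 controls (adjusted p = 0.0218) and 3.74 ± 1.27 with 4 (adjusted p = 0.172), on levels of a few reads per library in Ctrl_RT. Without MetR_CE replicate 3 its adjusted p with 7 controls was 0.0504. None of the 76 nuclear genes of the respiratory chain was called with 7 or with 4 controls, beside the same shares of all genes. Their median log2 fold change was 0.02 and -0.14.

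For lipolysis, the calls depended on the controls: of 24 genes, 2 were higher and 0 lower with 7 controls, and 0 higher and 3 lower with 4. The members higher with 7 were Prkar2b, a regulatory subunit of protein kinase A, at 0.71 with 7 controls and 0.40 with 4, and the lipid droplet protein gene Plin4, at 0.65 and 0.36 (adjusted p with 4 controls 0.209 and 0.44). Adrb3, the beta-3 adrenergic receptor of adipocytes, had 1673, 1391, 1284 and 1053 CPM in the 4 controls, 574, 787 and 414 in replicates 2, 4 and 5, and 616, 722 and 949.7 as the lowest, median and highest value in MetR_CE. The 4 controls all exceeded MetR_CE, whereas replicates 2 and 5 lay below it. The log2 fold change was -0.41 ± 0.23 with 7 controls (adjusted p = 0.202) and -0.83 ± 0.18 with 4 (adjusted p = 0.0174). The antilipolytic receptors Hcar1 (for lactate) and Hcar2 (for hydroxybutyrate) were lower with 4 controls alone, with log2 fold changes of -0.99 ± 0.24 and -0.83 ± 0.20 (adjusted p = 0.0355 and 0.0329), beside -0.45 ± 0.32 and -0.30 ± 0.29 with 7. As each is an adipocyte gene, the lower adipocyte marker sum of replicates 2, 4 and 5 moved with them, and its part was not tested. Adrb3 is itself a member of that sum. The lipase gene Pnpla2 had -0.07 ± 0.20 with 7 controls and -0.41 ± 0.19 with 4 (adjusted p = 0.842 and 0.409) and overlapping groups.

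In fatty acid oxidation, 1 of 32 genes rose and 3 fell with 4 controls, and 2 rose and 1 fell with 7. The member that rose with both was the peroxisomal thioesterase gene Acot4, at 10.9, 13.7 and 25.6 CPM in Ctrl_RT and 30.9, 45.02 and 58.5 in MetR_CE, which did not overlap, with a log2 fold change of 1.44 ± 0.23 with 7 controls and 1.18 ± 0.27 with 4 (adjusted p = 0.000692 and 0.0251). The peroxisomal bifunctional enzyme gene Ehhadh fell with both, with log2 fold changes of -1.03 ± 0.20 and -1.34 ± 0.18 (adjusted p = 0.003 and 0.000272). The carnitine carrier Slc25a20 and the isomerase Eci1 were called lower with 4 controls alone.

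Of 34 adipokine and insulin signalling genes, 7 were higher and 0 lower with 7 controls, and 2 higher and 1 lower with 4. Igfbp3, an IGF carrier, was higher by 0.87 ± 0.18 with 7 controls and 0.97 ± 0.20 with 4 (adjusted p = 0.00404 and 0.0128), and Igf1 itself was called lower with 4 controls alone, as its change with 7 was under 1.5-fold, with a log2 fold change of -0.53 ± 0.16 with 7 and -0.79 ± 0.12 with 4 (adjusted p = 0.0318 and 0.00118). Leptin (Lep), the satiety hormone of fat, had 344, 655 and 1052 CPM in Ctrl_RT and 736, 1771 and 2501 in MetR_CE, with a log2 fold change of 1.41 ± 0.30 with 7 controls (adjusted p = 0.00656) and 1.36 ± 0.38 with 4 (adjusted p = 0.0786). For Pparg, the regulator of adipocyte identity, these were 0.76 ± 0.16 (adjusted p = 0.00506) and 0.56 ± 0.18 (adjusted p = 0.134). Adiponectin (Adipoq) had -0.11 ± 0.21 with 4 controls and the hormone gene Fgf21 0.15 ± 0.67, neither of which passed (adjusted p = 0.962 and 0.998).

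Of 33 integrated stress response genes, 5 rose and 2 fell with 7 controls and 1 rose with 4. That gene was Trib3, a pseudokinase induced by Atf4, at 4.61, 7.47 and 8.99 CPM in Ctrl_RT and 8.23, 12.99 and 20.3 in MetR_CE, where MetR_CE replicate 1 overlapped with the controls. Its log2 fold change was 1.02 ± 0.17 (adjusted p = 0.000953) and 0.86 ± 0.19 (adjusted p = 0.0236). The glutathione-degrading enzyme gene Chac1 had 1.38 ± 0.26 with 7 controls and 1.11 ± 0.29 with 4 (adjusted p = 0.00203 and 0.0506). With 7 controls the log2 fold change of Slc7a11, the cystine importer subunit, was -3.71 and that of the folate enzyme Mthfd2 -1.39, and with 4 controls these were 1.001 and -0.02 (adjusted p = 0.844 and 1). Of 31 genes of methionine and cysteine metabolism, none was higher, 4 were lower with 7 controls (Cth, Odc1, Suox and Tst) and 2 others with 4. Of these the sulfurtransferase Mpst had a log2 fold change of -0.60 ± 0.10 (adjusted p = 0.00289; -0.32 with 7, not called).

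The remaining pathway lists held few calls with 4 controls, as did all genes tested (0.867%). Of 25 interferon-stimulated genes 1 was lower with both sets of controls (Oasl2), and of 29 immediate early genes 1 was higher (Maff, beside 4 with 7). Of 21 genes of cAMP signalling, Adcy3, an adenylyl cyclase, was higher with both sets (0.81 and 0.66), and of 24 genes of branched-chain amino acid breakdown Mccc1 was lower with 4 (-0.73). Lists of glucocorticoid-responsive, antioxidant and heat or cold shock genes held none with 4 controls, beside 2 higher and 2 lower of 15, none of 21 and 1 lower of 22 with 7. Macrophage and endothelial markers gave 1 and 1 higher with 7 controls and none with 4.

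Each stimulus alone was then set beside the pair, in contrasts that share the Ctrl_RT libraries. With 4 controls, cold alone (Ctrl_CE) gave 415 DEGs (1.40%) and diet alone (MetR_RT) 35 (0.118%). Without MetR_RT replicate 7 the diet count with 4 controls was 32 (0.115%), and without replicates 2 and 7 it was 23 (0.0837%). With 7 controls cold and diet alone gave 2594 (8.24%) and 6 (0.0191%). C6 had a log2 fold change of -0.68 ± 0.25 under cold, -1.74 ± 0.24 under diet and -2.55 ± 0.25 under both, with 4 controls, and only the cold value did not pass (adjusted p = 0.151, against 0.00174 for diet). Hr had 0.82 ± 0.32, 0.63 ± 0.32 and 2.04 ± 0.34, and neither stimulus alone passed. Arntl had -0.50 ± 0.31, -0.31 ± 0.31 and -1.79 ± 0.30, again with the pair alone past the threshold. Whether the pair differs from the sum of both is the interaction, and among the 24 leading genes its adjusted p with 4 controls ran upwards from 0.151 (Timp3 and Rasl11a), so no departure from additivity on the log2 scale was detected in them.

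**Figure D4:**
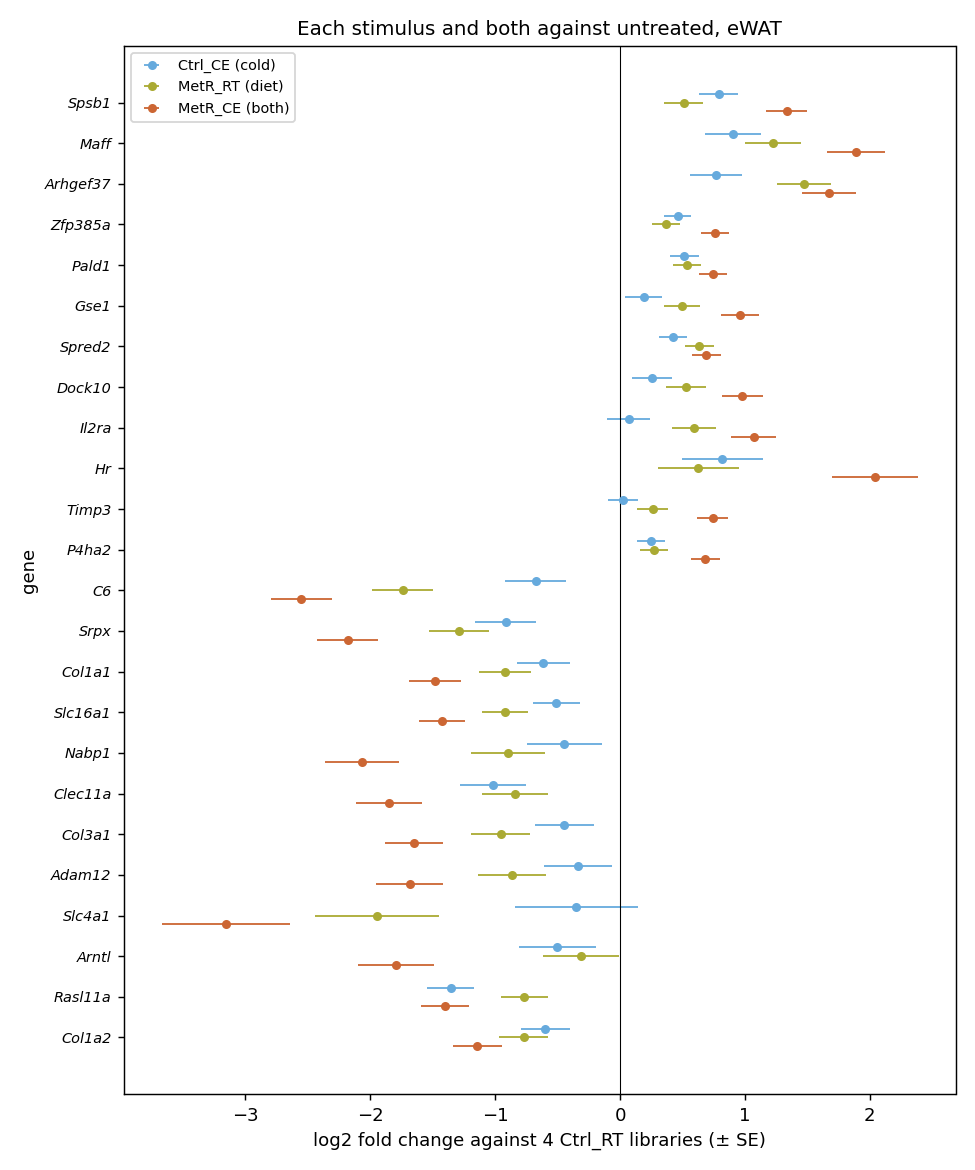
Log2 fold change (± SE) of the 24 leading genes against the 4 remaining Ctrl_RT libraries under cold alone (blue), diet alone (olive) and both (orange). In all 24 the point of both stimuli lies farthest from 0, which the choice of genes by this contrast favours, and the 3 contrasts share their controls.

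The interaction itself was called for 1 gene (0.00318%) with 7 controls (Plekhg6, named after its value was seen), beside 3574 genes at an unadjusted p under 0.05, and for 372 (1.25%) with 4. With 4 controls, 11 of 28 lipogenesis genes and 10 of 23 cholesterol genes had a negative interaction, meaning that MetR_CE lay below the sum of both single effects, and none and 1 a positive one. Without MetR_RT replicate 7, which held germ cell RNA, these counts were 17 and 12, and without MetR_RT replicates 2 and 7 they were 17 and 11. Fatty acid synthase (Fasn) had 3862, 7967 and 16041 CPM as the lowest, median and highest value of the 4 controls, 10993, 31703 and 54724 after cold alone, 3464, 24578 and 60724 after diet alone and 2624, 6359 and 14022 after both. The medians of both groups given a single stimulus lay above the controls, the ranges overlapped, and MetR_CE covered much of the range of the controls. The interaction of Fasn was -3.63 ± 0.91 (adjusted p = 0.0402) with 4 controls and -3.35 ± 0.82 (adjusted p = 0.0802) with 7. For Acly, which supplies cytosolic acetyl-CoA, it was -4.64 ± 1.07 (adjusted p = 0.0271) and -4.04 ± 0.98 (adjusted p = 0.0776). The direct contrast of MetR_CE with 4 controls gave -0.29 ± 0.64 for Fasn and -0.56 ± 0.73 for Acly (adjusted p = 0.97 and 0.896), and 0 of 28 lipogenesis genes were called. Lipolysis genes went the other way, with 6 of 24 above the sum of the single effects with 4 controls and 0 with 7. Hcar1 had an interaction of 2.28 ± 0.32 (adjusted p = 0.00263) with 4 controls.

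The same contrast in inguinal fat of 13 of the 14 mice (6 MetR_CE and 7 Ctrl_RT) showed where the epididymal response differed. In iWAT 5932 of 26428 genes were called (22.4%), 8.05% higher and 14.4% lower. The difference between the depots, tested in 1 fit over both, was called for 4261 genes (12.8%) with 7 eWAT controls and 2935 (9.23%) with 4. Of the 76 respiratory chain genes, 63 rose in iWAT, and 71 had a lower log2 fold change in eWAT than in iWAT by the test of the difference with 4 controls. The same held for 24 of 32 fatty acid oxidation genes and 16 of 24 thermogenic genes. Ucp1 was not among them, with log2 fold changes of 3.74 ± 1.27 in eWAT and 4.58 ± 0.77 in iWAT (adjusted p of the difference 0.92), whereas Fgf21 had 0.15 ± 0.67 and 4.03 ± 0.38 (adjusted p of the difference 0.000236).

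For clock genes the test of the difference between depots called 3 of 19 with 7 eWAT controls and 0 with 4. The 3 were Cry1, Hlf and Nfil3, lower in eWAT by the log2 differences -0.92, -1.47 and -1.15 with 7 controls, and at -0.49, -0.71 and -1.10 with 4 (adjusted p = 0.364, 0.269 and 0.0932). Over the 19 genes with 4 controls, the median log2 fold change was 0.81 in eWAT and 1.17 in iWAT, and Arntl had -1.79 ± 0.30 and -1.60 ± 0.21. For Arntl the difference itself was -0.19 ± 0.37 (adjusted p = 0.881). Matrix genes fell less in eWAT: 18 of 35 had a higher (less negative) log2 fold change than in iWAT, among them Col1a1, with -1.48 ± 0.21 against -4.16 ± 0.56 (adjusted p of the difference 0.00151). Macrophage markers showed the same pattern, with 16 of 17 lower in iWAT, 0 in eWAT and 13 in the test of the difference. Slc16a1 went in opposite directions, with -1.43 ± 0.19 in eWAT and 0.86 ± 0.27 in iWAT (adjusted p of the difference 2.32e-05). P4ha2 had opposite signs too, with 0.68 ± 0.12 and -0.52 ± 0.12 (adjusted p of the difference 1.08e-05). Its change in iWAT was under 1.5-fold and so not called. The joint edgeR test treated the depots of a mouse as independent libraries, and limma voom with the mouse as a block, which estimated a correlation of 0.0714 within a mouse, called 3894 genes.

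**Figure D5:**
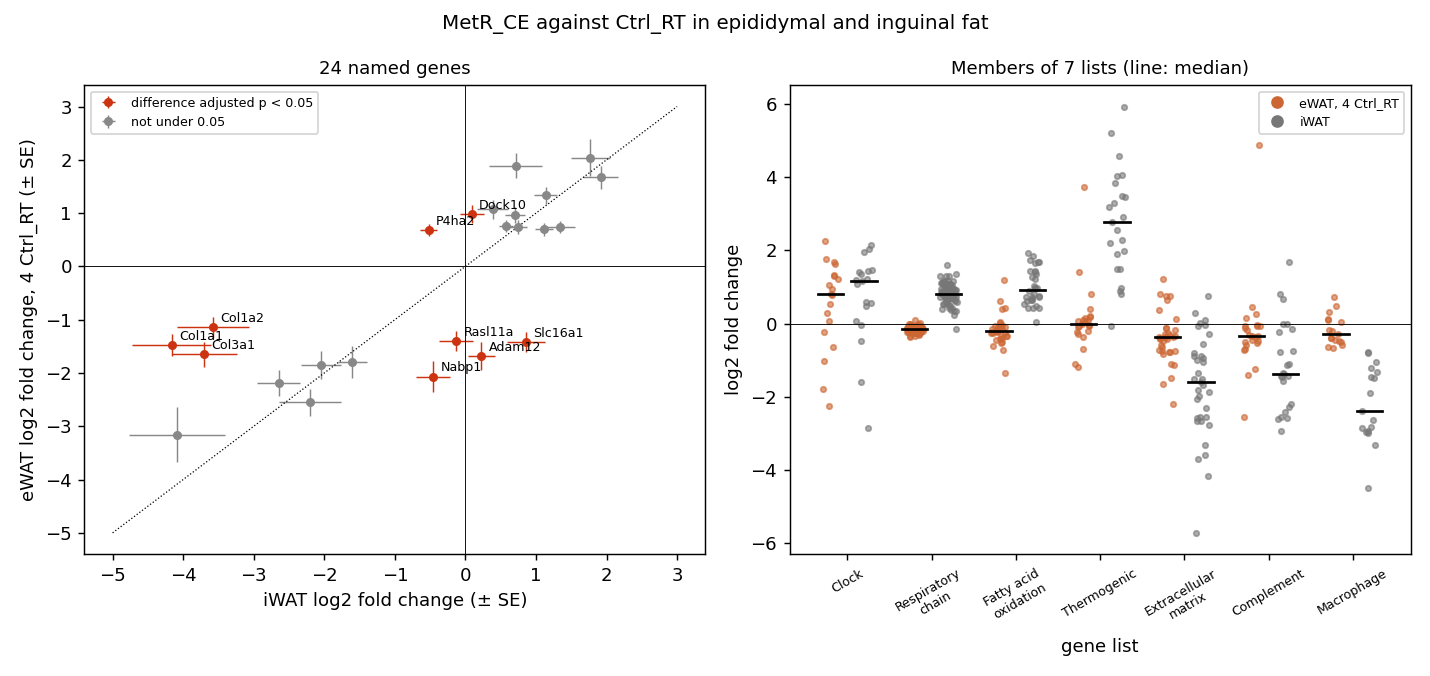
Left, log2 fold change (± SE) of MetR_CE against Ctrl_RT for the 24 leading genes in iWAT (x axis) and eWAT with 4 Ctrl_RT libraries (y axis), in red where the difference between depots had an adjusted p under 0.05. Right, log2 fold changes of the members of 7 lists in eWAT (orange) and iWAT (grey) with their medians as lines: clock genes span similar ranges in both depots, and respiratory chain, oxidation and thermogenic genes lie near 0 in eWAT and above it in iWAT.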

How the data were processed

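RNA was extracted with TRI reagent, selected for polyA, made into libraries with the NEBNext Ultra II kit and sequenced in pairs. The deposited values were raw counts for each gene as whole numbers, which the authors made against mm10. Per the labels the tools were STAR 2.7.9a, featureCounts 2.0.3, Salmon 1.9.0, MultiQC 1.19 and DESeq2 1.46.0. Whether reads were counted by strand is not given in the sources used here, so overlapping antisense genes are uncertain.

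Columns of the eWAT table were matched to samples by library name, and 27 columns of another tissue in the table used for iWAT were not used. Of 56884 identifiers, 51948 matched a gene name once version numbers were dropped, and 35 with them. Counts were normalised by TMM and tested with edgeR 4.0.16 (R 4.3.3), by quasi-likelihood with Benjamini-Hochberg adjustment, over genes with at least 10 counts in total. All 28 eWAT libraries entered 1 fit with 4 group means. CPM used TMM library sizes, and fold changes the default prior count of edgeR. The code was tested on simulated data. Named genes were the 12 higher and 12 lower genes called with 7 and with 4 controls with the lowest larger p, up to 4 called members of each list with the lowest p, and a few set genes. Genes whose call differed between both sets of controls could be named as well. The genes, lists and comparison were chosen with earlier results of these data known. Alternatives used limma 3.58.1, DESeq2 1.42.0 and apeglm 1.24.0.

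Each mouse gave 1 eWAT library. Depth limits genes of low level, such as Ucp1 in Ctrl_RT, to a few counts per library. Replicate numbers do not pair mice between groups: same-numbered libraries were different mice, and the correlations of their deviations from the group means ran from -0.62 to 0.60. Results for some genes are not reported here.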

Additional observations from a re-analysis of the deposited data

Results flagged for a closer look

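Among the 24 leading genes, 2 had a library of Ctrl_RT or MetR_CE apart from the other 6 of its group. Arhgef37 was at 133 CPM in MetR_CE replicate 3, and Col3a1 at 864 CPM in MetR_CE replicate 6. In each the gap to the nearest library, over the range of the group, exceeded Dixon's critical value for 7 samples. Chance flags about 1 in 20 groups, and 66 groups were examined. Ctrl_CE and MetR_RT were not part of this check, although they entered the fit. In Ctrl_CE, Col3a1 was at 2657 CPM in replicate 3, beside a group median of 1174.

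The contrast of MetR_CE with Ctrl_RT differed between eWAT and iWAT for 9 of the 24 with both 7 and 4 eWAT controls, at an adjusted p under 0.05 by the edgeR test of the difference. With 7 controls alone, Il2ra (0.86), Pald1 (-0.69) and Spred2 (-0.52) also passed. For the 9, given here with 7 controls, the log2 fold change was higher in eWAT by 1.02 for Dock10, 1.23 for P4ha2, 2.68 for Col1a1, 2.20 for Col3a1 and 2.48 for Col1a2. Expressed as eWAT minus iWAT, the difference was -2.18 for Slc16a1, -1.58 for Nabp1, -1.78 for Adam12 and -1.13 for Rasl11a. The collagen genes fell in both depots, and the causes of these differences were not tested.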

How the results depend on the processing

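The count of DEGs depended on the libraries and the tool, and the causes were not tested. The 3268 DEGs with 7 controls became 257 without Ctrl_RT replicates 2, 4 and 5, 360 with MetR_RT replicate 7 also left out, and 395 with only MetR_CE and the 4 controls. With only the 14 libraries of both groups the count was 1791, with apeglm shrinkage 1507, with limma voom and quality weights 792, with the stricter low-count filter of filterByExpr 1747, and with glmTreat 23. Alternatives chosen after seeing the data gave 484 with covariates of 3 genital tract lists and 197 without Ctrl_RT replicate 6 as well. RLE factors (3342), DESeq2 without shrinkage (3488) and no filter (2611) stayed within 1.5 times.

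Leaving out 1 library at a time, 3.23% to 14% of genes tested were DEGs, beside 10.4% with all 7 controls. Without Ctrl_RT replicates 4 or 5 the share was 5.53% and 3.23%, and without MetR_CE replicates 2, 3, 5, 6 or 7 it was 5.26%, 4.75%, 3.59%, 4.53% and 3.79%. With 4 controls (0.867%) the range was 0.325% to 1%, with 0.325% and 0.522% without Ctrl_RT replicates 1 or 3 and 0.558%, 0.525%, 0.565% and 0.555% without MetR_CE replicates 3, 5, 6 or 7. With 4 controls DESeq2 called 571, limma voom 687, glmTreat 20 and, added after seeing the data, the fit with genital tract covariates 409 and that of 2 groups alone 395.

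The fit with the replicate number as a block called 730 DEGs with 7 controls and 202 with 4. The numbers do not pair mice, and in 2 of 7 numbers a library correlated best with its own number.

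The interaction count of 1 became 372 with 4 controls, 640 with MetR_RT replicate 7 also left out, 532 without MetR_RT replicates 2 and 7 (added after seeing the data) and 637 with DESeq2. Of 672 values of the 24 leading genes under 28 settings, 660 stayed on the same side of the threshold and 12 fell short. None had another sign, and of the 12, 11 were under glmTreat and 1 was Spred2 (0.57) with genital tract covariates. The 24 were chosen as called with 7 and with 4 controls, which favours this count. The repeat without Ctrl_RT replicates 2, 4 and 5 was among the settings, and many others left out a single library.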
